A study of Mus musculus with 20 samples.

Results

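A set of 9 genes of blood vessels is described here in the cortex of wild-type mice and of mice with a heterozygous Foxp2 deletion in the cortex. They were chosen by name, 9 of the 25317 gene identifiers in the count table. The 5 endothelial genes are Slc2a1, Cldn5, Itm2a, Flt1 and Pecam1, and the 4 mural genes are Vtn, Pdgfrb, Rgs5 and Ednra. All animals were 3 months old on a C57BL/6 background. From the cortical lysate of each compared animal, GFP-tagged ribosomes were purified with an antiserum to GFP (bacTRAP). The purified fraction is called IP, and a sample of the lysate taken before it is called Input. The compared libraries were 5 IP and 5 Input from wild-type animals (wt734, wt736, wt785, wtBT13, wtBT14) and 3 IP and 3 Input from heterozygotes (het729, het786, hetBT13). The sources used here do not say which cells carry the GFP tag or what drove the Foxp2 deletion. Both fractions come from lysates of cortical tissue, so for any gene below, fewer cells of a type and less RNA per cell cannot be told apart.

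Brain capillaries are lined by endothelial cells that are sealed by tight junctions and form the blood-brain barrier. Pericytes on capillaries and smooth muscle cells on arterioles, together the mural cells, wrap this lining. Endothelial PDGF-B recruits them through the PDGF receptor beta, and endothelin, released by the endothelium, contracts them through its receptors. Among the endothelial genes, Slc2a1 encodes the glucose transporter GLUT1 of the barrier and Cldn5 the main tight-junction claudin. Itm2a encodes a membrane protein that is abundant in brain endothelium, Flt1 a VEGF receptor, and Pecam1 an adhesion molecule of endothelial contacts. Among the mural genes, Vtn encodes vitronectin, a secreted adhesion protein made by brain pericytes. Pdgfrb encodes the PDGF receptor beta, Rgs5 a regulator of G-protein signalling that marks pericytes, and Ednra the endothelin A receptor, which is strongest in arteriolar smooth muscle.

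Cldn5 and Rgs5 were the pair called lower in IP than in Input in both genotypes, and the 250 bases before their RefSeq start sites (build GRCm38.p6) are shown for that reason, chosen after their values were seen. The sequences run from 5′ to 3′ on the gene's strand, and capitals mark a GC box (GGGCGG or its reverse complement CCGCCC).
Cldn5, chr16:18776597-18776846, plus strand: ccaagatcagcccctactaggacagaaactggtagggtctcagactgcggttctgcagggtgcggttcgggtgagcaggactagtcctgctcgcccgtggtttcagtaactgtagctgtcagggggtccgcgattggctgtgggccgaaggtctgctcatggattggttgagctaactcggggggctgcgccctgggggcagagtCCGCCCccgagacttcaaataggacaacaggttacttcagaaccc
Rgs5, chr1:169655251-169655500, plus strand: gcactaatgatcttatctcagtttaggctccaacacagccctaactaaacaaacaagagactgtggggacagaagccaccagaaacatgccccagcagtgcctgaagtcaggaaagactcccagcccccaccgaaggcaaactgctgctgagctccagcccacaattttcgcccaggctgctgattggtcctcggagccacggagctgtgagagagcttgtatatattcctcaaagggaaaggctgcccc
The RefSeq promoter table held 7 of the 9 genes, all but Pecam1 and Pdgfrb. A GC box was present on either strand in 4 of 4 endothelial windows (Cldn5, Flt1, Itm2a, Slc2a1) and in 0 of 3 mural windows (Vtn, Rgs5, Ednra), against 32.7% of 32851 windows of the same length. In Cldn5 it began at base -45 from the start site, and Flt1 held 3. The GC content was 59.6% for Cldn5 and 53.6% for Rgs5, where the median window had 52.4%. TATAAA, searched on both strands, was found in Flt1 and Vtn and in 12.4% of all windows. No window of the 7 held CCGGAA (in 12% of all windows), ACAGGAA (7.20%), TGTTTAC (3.17%), CAGCTG (13%) or ACAAAG (16.5%) on either strand. These are matches of letters in 1 window per gene, and nothing in the count data bears on binding there.

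Total counts ran from 2782934 to 5754169 over the 16 compared libraries, with 2782934 to 4072270 in Input and 4061562 to 5754169 in IP. Foxp2, the deleted gene, served as the check of the labels. It stood at 27.8 ± 3.52 CPM (counts scaled to library size with TMM; SD, n = 3) in heterozygous Input against 47.0 ± 10.8 (n = 5) in wild type, and at 46.5 ± 12.9 against 69.5 ± 21.2 in IP. The genotypes did not overlap in Input (24.0 to 30.9 against 37.9 to 63.7 CPM). In IP they did (31.8 to 55.7 against 45.4 to 103 CPM), so Foxp2 did not separate the IP libraries, and it was not called in either fraction. The IP library of het729 stood apart, with 0.398% of counts from mitochondrial genes against 0.0616% to 0.127% in the other 7 IP libraries. It also had 1293 CPM of red cell genes against 476 to 747 CPM, and the Input of het729 had 3718 CPM against 1094 to 1506 in the other 7 compared Input libraries. Counts were low for several members. In wild-type Input, Flt1 had 5 to 9 counts per library, Pecam1 2 to 8 and Ednra 4 to 10, while Slc2a1 had 110 to 177. Endothelial transcripts were scarce in general: 13 of 25 endothelial identity genes had a mean below 1 CPM in wild-type Input, and Robo4 was at 0 there in all 5 libraries, in each of which a count of 0 allows a level of up to 0.796 to 0.950 CPM (3 counts, counting error only).

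In wild-type Input the 9 genes differed widely in their level per length of exon. Itm2a stood at 11.6 ± 2.10 CPM per kb (SD, n = 5) and Slc2a1, the glucose transporter, at 11.4 ± 2.19, and they did not differ beyond their spread, since Itm2a was higher in 2 of 5 libraries. Both lay above Rgs5 at 6.64 ± 0.81 and Vtn at 6.5 ± 1.30, which also overlapped each other. Cldn5 followed at 3.25 ± 1.72 CPM per kb, below Vtn in all 5 libraries although the ranges overlapped. The tight-junction gene was above all libraries of Pdgfrb, at 0.589 ± 0.0880. The receptors and Pecam1 formed the low end. Ednra stood at 0.321 ± 0.125 CPM per kb, Pecam1 at 0.201 ± 0.103 and Flt1 at 0.133 ± 0.0338, and each of these overlapped its neighbour in the order. The order of the means in wild-type IP was the same except that Slc2a1 passed Itm2a and Vtn passed Rgs5. In heterozygous IP Ednra, with 1 count in 3 libraries, came last.

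**Figure D1:**
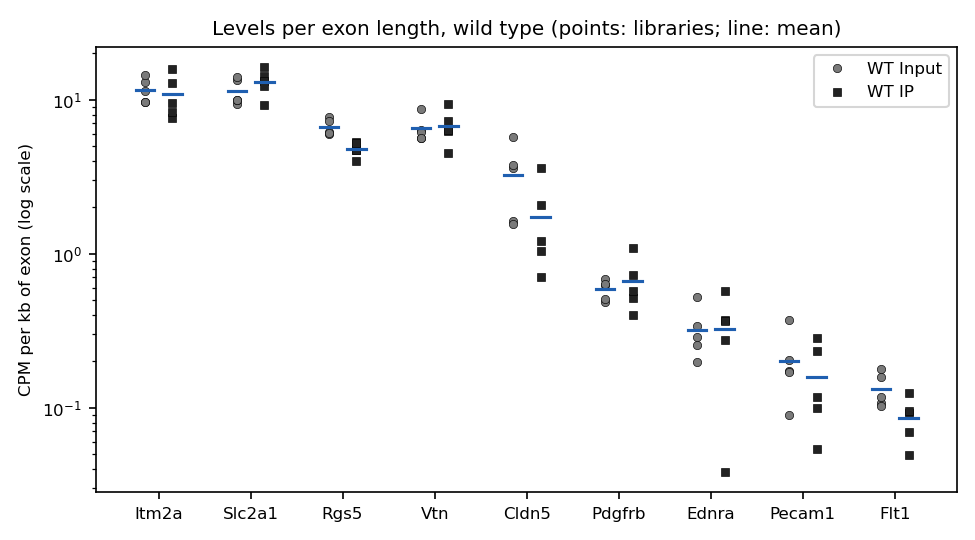
Levels of the 9 genes in wild-type Input (circles) and IP (squares), in TMM-scaled CPM per kb of exon on a log axis, with 1 point per library and a line at the mean. In Input the means run from 11.6 for Itm2a to 0.133 for Flt1, and the lowest IP point of Ednra is the library of wt785 with 1 count.

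On mm10, with GENCODE gene models, Slc2a1 lies on chromosome 4 (119108711 to 119137983, plus strand), Cldn5 on chromosome 16 (18776847 to 18778262, plus) and Itm2a on chromosome X (107397099 to 107403376, minus). Flt1 lies on chromosome 5 (147561604 to 147726011, minus) and Pecam1 on chromosome 11 (106654217 to 106750628, minus). Vtn is also on chromosome 11 (78499091 to 78502324, plus), Pdgfrb is on chromosome 18 (61045150 to 61085061, plus), Rgs5 on chromosome 1 (169655501 to 169695813, plus) and Ednra on chromosome 8 (77663031 to 77724464, minus). The joined length of the exons, by which the levels per kb were divided, runs from 1416 bases in 1 block for Cldn5 to 13504 bases in 33 blocks for Flt1. Slc2a1 shares 105 exon bases with the antisense gene Gm12868, and Ednra shares 91 with 4933431K23Rik on the other strand. The library protocol does not mark strand, so reads from these shared bases cannot be told apart.

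The comparison of IP with Input asks which vascular RNAs were higher or lower in the purified fraction than in the lysate. How much of the IP counts came from RNA not on tagged ribosomes was not tested. In wild type, 6 of the 9 genes passed the filter on low counts and 2 of these 6 were called, both lower in IP, where 54.1% of all 14797 genes tested were called, 28.5% higher and 25.6% lower (edgeR quasi-likelihood test, adjusted p below 0.05). The 2 were Cldn5 and Rgs5. Flt1, Pecam1 and Ednra did not pass the filter. The median log2 difference of the 6 was -0.04, beside 0.03 over all genes tested.

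Cldn5 had 5.11, 5.31, 2.30, 8.07 and 2.22 CPM in the Input of wt734, wt736, wt785, wtBT13 and wtBT14, and 1.0, 1.71, 2.92, 5.09 and 1.47 CPM in their IP. IP was below Input in 4 of these 5 animals, all but wt785, and the ranges of the fractions overlapped. The log2 difference, IP against Input, was -0.97 (SE 0.34, adjusted p = 0.0185, edgeR, 5 animals). This call rests on few counts, 83 in Input and 62 in IP over the 5 animals each. It was lost without wt734 (-0.69, adjusted p = 0.116), without wt736 (-0.79, adjusted p = 0.0890) and without the animal as a block (-0.97, adjusted p = 0.0513), in a range of 0.00583 to 0.116 over its alternatives. In heterozygotes the tight-junction gene had 2.61, 5.19 and 7.23 CPM in the Input of het729, het786 and hetBT13 and 1.40, 1.29 and 2.03 in IP, with no overlap. How many of all genes were separated in this way was not counted. The difference in heterozygotes was -1.61 (SE 0.46, adjusted p = 0.00655). Without het786 it was -1.43 (adjusted p = 0.0551) and without hetBT13 -1.47 (adjusted p = 0.0587), which ended the call (range 0.0010 to 0.0587).

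Rgs5, the pericyte regulator of G-protein signalling, was lower in IP than in Input in 8 of 8 animals, as were 22.4% of all genes tested (23.0% were higher in 8 of 8). Its Input levels in wild type were 27.2, 27.9, 27.6, 35.1 and 33.3 CPM for wt734, wt736, wt785, wtBT13 and wtBT14, and its IP levels were 21.5, 24.2, 21.5, 18.2 and 23.8. Every wild-type IP library lay below every wild-type Input library, and the share of all genes that did so was not counted. The log2 difference was -0.46 (SE 0.15, adjusted p = 0.0144, edgeR). Without wtBT13 it was -0.33 (adjusted p = 0.0914), and the call was lost. That animal had the lowest ratio of IP to Input in this group (range 0.00406 to 0.0914 over its alternatives).

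In heterozygotes 3 of 6 members tested were called, all lower in IP (Cldn5, Rgs5 and Vtn), beside 44.8% of all genes called, 22.6% higher and 22.1% lower. Rgs5 had 32.6, 24.0 and 26.9 CPM in the Input of het729, het786 and hetBT13 and 24.4, 16.7 and 8.80 in IP. The ranges overlapped only through the IP of het729 and the Input of het786. Its log2 difference was -0.79 (SE 0.21, adjusted p = 0.00364) and rested in part on hetBT13, without which it was -0.47 (adjusted p = 0.0847, range 0.000338 to 0.0847).

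Vtn, the vitronectin gene of pericytes, had 13, 11.7 and 12.1 CPM in heterozygous Input and 7.02, 6.61 and 9.14 in IP, in the same order of animals. Every IP library lay below every Input library, again without a count of how many of all genes did so. The log2 difference was -0.71 (SE 0.25, adjusted p = 0.0226). Leaving out het729 (-0.62, adjusted p = 0.123) or het786 (-0.65, adjusted p = 0.101) ended the call (range 0.0108 to 0.123). In wild type the same gene had 17.8, 11.4, 12.9, 12.5 and 11.4 CPM in Input and 12.7, 9.20, 12.9, 19.0 and 14.9 in IP for wt734, wt736, wt785, wtBT13 and wtBT14. The wild-type fractions overlapped, with a difference of 0.04 (SE 0.17, adjusted p = 0.870) that turned to -0.05 under upper quartile scaling and ran from -0.11 to 0.18 with 1 animal left out. The ratio of IP to Input ran from 0.538 to 0.758 in heterozygotes and from 0.714 to 1.52 in wild type, so the genotypes overlapped in the animals' own ratios.

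The difference of the IP-to-Input change between the genotypes was called for 0 of 6 members and for 0 of 14797 genes (0%) by edgeR, with 454 genes at an unadjusted p below 0.05. DESeq2 and limma-voom called 0 genes as well. For Vtn this difference was -0.75 on the log2 scale (SE 0.30, unadjusted p = 0.0209, adjusted p = 1.0). For Cldn5 it was -0.64 (SE 0.57), and -0.36 without wt785. For Rgs5 it was -0.33 (SE 0.25), and -0.02 without hetBT13. Slc2a1 had -0.22 (SE 0.19), or -0.12 without wt734, Pdgfrb -0.30 (SE 0.56), or -0.04 without wtBT13, and Itm2a 0.07 (SE 0.25), or -0.15 without hetBT13. The larger differences of Vtn, Cldn5 and Rgs5 in heterozygotes were therefore not shown to differ from those in wild type.

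**Figure D2:**
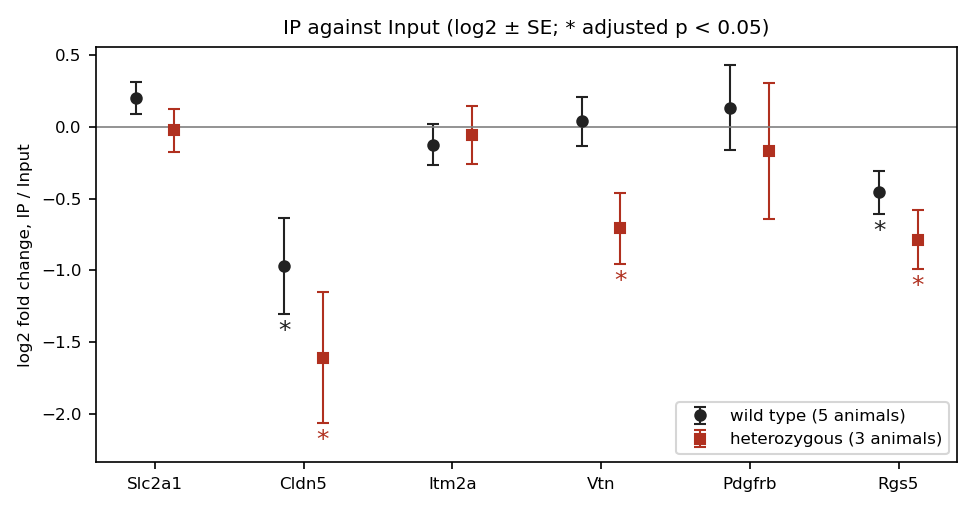
Log2 difference of IP against Input (± SE) for the 6 members that passed the filter, in wild type (circles, 5 animals) and heterozygotes (squares, 3 animals), with a star at an adjusted p below 0.05. Cldn5 and Rgs5 lie below 0 with a star in both genotypes, Vtn in heterozygotes alone (-0.71 against 0.04 in wild type, a difference that was not called).

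Slc2a1, Itm2a and Pdgfrb were not called in either genotype. Slc2a1 had 33.1 to 49.3 CPM in wild-type Input and 32.6 to 56.9 in IP, with a log2 difference of 0.20 (SE 0.11, adjusted p = 0.130) and of -0.02 (SE 0.15) in heterozygotes. Itm2a had 16.7 to 25.1 CPM in wild-type Input and 13.3 to 27.5 in IP, a difference of -0.12 (SE 0.14), and -0.05 (SE 0.20) in heterozygotes. The PDGF receptor gene had 2.65 to 3.77 CPM in Input and 2.20 to 5.98 in IP, a difference of 0.13 (SE 0.30), and -0.17 (SE 0.48) in heterozygotes. For each of these the fractions overlapped, and their order in single animals went both ways in wild type. Summed over the class, the 5 endothelial members had 67.7 ± 11.8 CPM in wild-type Input and 69.2 ± 15.9 in IP, of which Slc2a1 was the largest part. The 4 mural members had 48.4 ± 3.11 CPM in Input and 41.0 ± 3.41 in IP in wild type, and 43.2 ± 5.73 and 26.1 ± 6.90 in heterozygotes.

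The 3 genes below the filter are described by their counts. Flt1, the VEGF receptor, had 32 counts over 5 wild-type Input libraries and 32 over the 5 deeper IP libraries, or 1.79 ± 0.46 and 1.16 ± 0.38 CPM. IP was below Input in 5 of 5 wild-type animals, and the share of all genes that did so was not counted. Pecam1 had 22 and 25 counts, or 1.25 ± 0.64 and 0.984 ± 0.60 CPM. Ednra had 31 and 49 counts, or 1.76 ± 0.69 and 1.77 ± 1.05 CPM, with IP above Input in 4 of 5 animals and a single IP count in wt785. Tested without the filter, none of these 3 was called in wild type (adjusted p from 0.457 to 1), and the SE of each log2 difference was 0.46 to 0.59. In heterozygotes without the filter Ednra was called lower in IP (adjusted p = 0.00760), on 10 Input counts and 1 IP count in all, too few to give a fitted size. Flt1 had 10 Input and 11 IP counts in heterozygotes and Pecam1 9 and 16, and neither was called there (adjusted p = 0.707 and 1.0). In het729 alone of the 3 heterozygotes Flt1 was higher in IP than in Input, on 6 counts against 1.

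**Figure D3:**
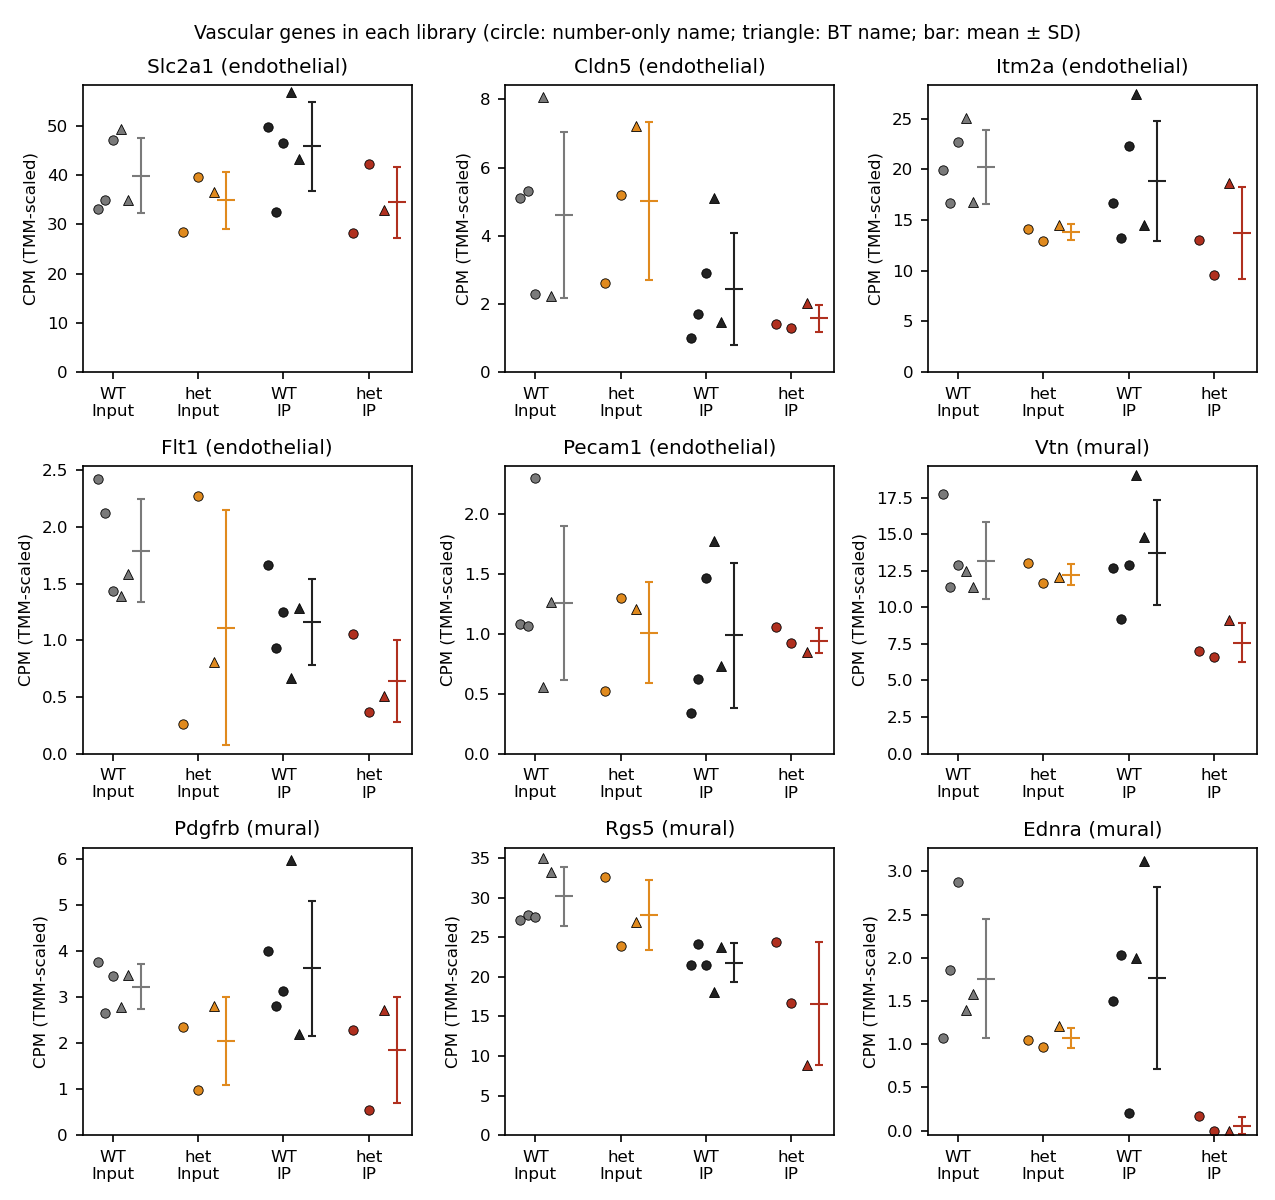
TMM-scaled CPM of each member in each compared library, by genotype and fraction, with the mean ± SD beside the points (circles for animals named by a number, triangles for BT names). Rgs5 is lower in IP in both genotypes. Vtn separates heterozygous from wild-type IP libraries (6.61 to 9.14 against 9.20 to 19.0 CPM), as 1.74% of all genes tested did in that direction. Itm2a separates the genotypes in the Input libraries drawn (13 to 14.5 against 16.7 to 25.1 CPM), as 2.86% did. Neither genotype difference was called. In the IX and IXX libraries of hetBT14, which are not drawn, Itm2a stood at 19.5 and 19.1 CPM, within the wild-type range.

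Other genes of the vessel wall were counted in the same wild-type comparison of IP with Input. There 54.1% of all genes tested were called, 28.5% higher and 25.6% lower, and every list count in this comparison is to be read beside these shares. Of 25 endothelial identity genes, 4 of which are members, 8 were tested, 1 was called higher and 3 lower, with a median of -0.14. Egfl7, a secreted endothelial factor, was higher (0.56, SE 0.12) and Eng, the TGF-beta co-receptor endoglin, was lower (-0.98, SE 0.28). Of 17 barrier transporters 12 were tested, with 3 called higher and 2 lower. The efflux pump gene Abcg2 rose by 1.32 (SE 0.18) and the organic anion transporter gene Slc22a8 fell by 1.42 (SE 0.21), on either side of Slc2a1 at 0.20. Of 13 junction genes 9 were tested, with Tjp1 (0.98) and Cgn (1.36) called higher, and Jam2 (-1.11) and Cldn5 lower.

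Among mural genes, 9 of 18 pericyte genes were tested, with 1 called higher and 4 lower. Of all genes tested 28.5% were called higher and 25.6% lower. The list holds Vtn, Pdgfrb and Rgs5, and of its 6 other tested genes 1 was higher and 3 lower. Higd1b (-1.75, SE 0.53), Zic1 (-1.49, SE 0.45) and the transporter gene Slc6a20a (-0.78, SE 0.24) were lower together with Rgs5, while Vtn and Pdgfrb were not called. Of 14 smooth muscle genes 6 were tested and 3 were called, all lower: the contractile genes Myl9 (-1.98, SE 0.22), Acta2 (-1.66, SE 0.27) and Mylk (-0.73, SE 0.26). None of 5 tested PDGF ligands and receptors was called (0 of 5), Pdgfb, the endothelial ligand of the PDGF receptor beta, standing at 0.29 (SE 0.16, adjusted p = 0.117). Of 5 tested VEGF genes 3 were called higher, Nrp1 (1.41) and Nrp2 (0.85) among them, and 1 lower, the ligand Vegfb (-0.71). Of 8 basement membrane genes tested, 3 laminin genes, Lamb2 (1.79) and Lamc1 (1.21) among them, were higher and Sparc (-1.52) was lower. Of 6 tested angiopoietin, Tie and TGF-beta genes 1 was higher and 3 were lower, Eng and the receptor gene Tgfbr2 (-0.97) among them. Of 8 tested genes of Norrin and Wnt signalling at the barrier 1 was higher, Lef1 (2.18), and 3 were lower, the ligand genes Ndp (-0.85) and Wnt7a (-0.88) among them. Of 9 tested endothelin and vasoactive genes 2 were higher and 3 lower, the adenosine receptor gene Adora2a (-1.75) among these. Of 8 tested perivascular fibroblast genes 2 were higher and 3 lower, and the 1 perivascular macrophage gene tested was not called. Several of these lists hold genes that other cells of the cortex also express, such as the neuropilins in neurons, and the part of those cells in the counts was not tested.

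The other cell types of the tissue gave the scale for these values. Of 14 astrocyte genes 12 were called lower in wild-type IP and 1 higher (median -0.95), and of 12 oligodendrocyte genes 10 were called lower (median -1.89). Among 13 microglial genes 9 were called lower (median -1.06), and 7 of 7 red cell genes tested were lower (median -3.15). Of 10 glutamatergic neuron genes 7 were called higher and 2 lower (median 0.48), and of 10 interneuron genes 1 higher and 9 lower (median -1.50). Of 3 choroid plexus genes tested 2 were lower. None of the glial or neuronal lists held a gene at 0 in all wild-type Input libraries. With the 9 members taken out, the medians of the endothelial identity genes (-0.13), barrier transporters (0.17), pericyte genes (-0.31) and smooth muscle genes (-0.64) lay between those of the astrocyte and the glutamatergic lists, and that of the VEGF genes (0.79), neuropilins included, lay above both. No test compared the lists with each other.

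**Figure D4:**
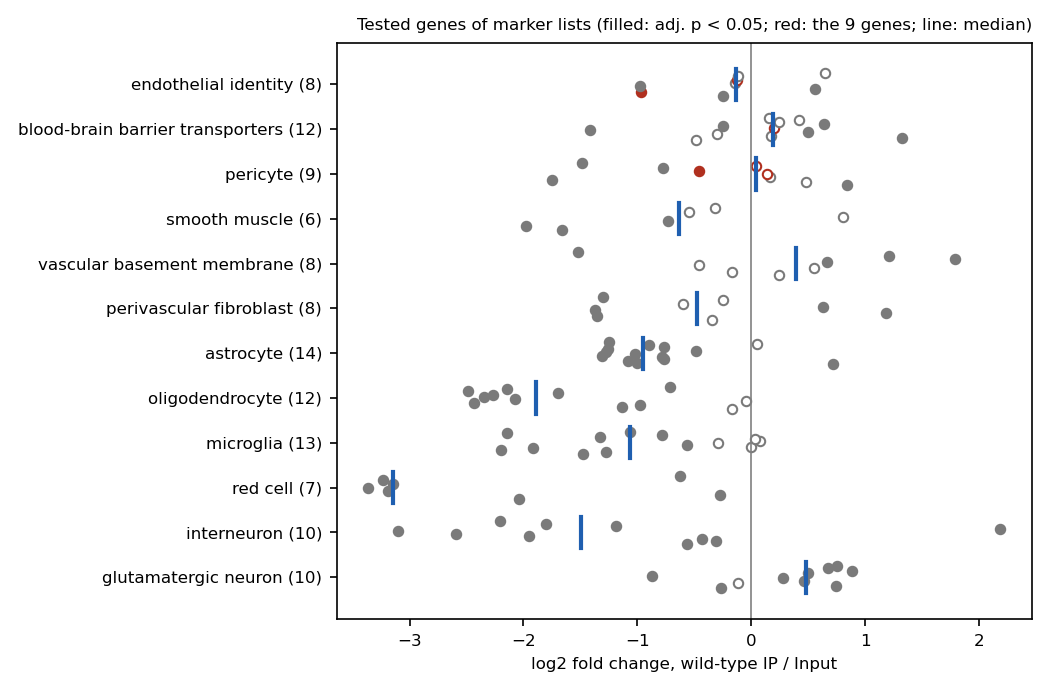
Log2 difference of IP against Input in wild type for each tested gene of 12 marker lists (number tested in brackets), filled at an adjusted p below 0.05, red for the members, with a line at each median. The vascular lists drawn, members included and the VEGF list not among them, scatter on both sides of 0, with medians from -0.64 to 0.40, while the astrocyte, oligodendrocyte, microglial and red cell medians run from -0.95 to -3.15.

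The genotype comparison asks what the heterozygous deletion of Foxp2 changed. In IP, 7 of the 9 genes were tested and 0 were called by edgeR, as was the case for 0% of 14755 genes, with 604 genes (4.09%) at an unadjusted p below 0.05. DESeq2 called 3 genes and limma-voom 0, and none was a member. Ednra passed the filter through its wild-type counts alone, which fixed its direction, so it is left out of the counts that follow. The other 6 all had a negative log2 difference (heterozygous against wild type), where 49.3% of all genes did, and 2, Slc2a1 and Vtn, had an unadjusted p below 0.05. Their median was -0.51, beside 0.0032 over all genes. Vtn was the 1 gene of the 6 in which every heterozygous library lay below every wild-type one, where 1.74% of all genes did so and 1.83% did the opposite.

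Vtn had 7.02, 6.61 and 9.14 CPM in the IP of het729, het786 and hetBT13, against 12.7, 9.20, 12.9, 19.0 and 14.9 in wt734, wt736, wt785, wtBT13 and wtBT14. The highest heterozygote, hetBT13, was just below the lowest wild type, wt736. The means were 7.59 ± 1.36 and 13.7 ± 3.6 CPM, a log2 difference of -0.85 (SE 0.25, unadjusted p = 0.00404, adjusted p = 0.981, edgeR). Split by name, the heterozygous mean was 53.9% of the wild-type mean for BT names (1 against 2) and 58.8% for numbers alone (2 against 3). Without het729 the difference was -0.80. In Input the vitronectin gene overlapped between the genotypes, at 12.3 ± 0.71 against 13.2 ± 2.63 CPM, with a difference of -0.10 (SE 0.19) that turned to 0.03 without wt734.

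Ednra, the endothelin receptor gene, had 1, 0 and 0 counts in the heterozygous IP libraries of het729, het786 and hetBT13, against 9, 13, 1, 9 and 17 in the wild-type ones. The lowest wild type, wt785, had 1 count as het729 did, or 0.209 against 0.176 CPM after scaling. A count of 0 allows a level of up to 0.551 CPM in het786 and 0.508 CPM in hetBT13, both above wt785, so the groups are not separated at this depth. Pooled over libraries, the heterozygous level was 3.25% of wild type (95% interval 0.0807% to 19.0%, exact binomial, counting error only), and the gene passed the filter only through the wild-type libraries. Its unadjusted p was 0.000702 and its adjusted p 0.981 (edgeR). In Input it had 4, 3 and 3 counts against 4, 7, 10, 5 and 5, where the pooled level was 60.7% of wild type (interval 26.6% to 127%).

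The remaining members overlapped between the genotypes in IP. Slc2a1 stood at 34.4 ± 7.14 against 45.8 ± 8.95 CPM, a log2 difference of -0.41 (SE 0.18, unadjusted p = 0.0384). Rgs5 stood at 16.6 ± 7.80 against 21.8 ± 2.41 CPM (-0.40, SE 0.25), with het729 at 24.4 above every wild type and hetBT13 at 8.80 the lowest of the 8, and without hetBT13 the difference was -0.10. The heterozygotes thus spread more widely than the wild types for this gene. Itm2a (-0.45, SE 0.27), Cldn5 (-0.58, SE 0.52) and Pdgfrb (-0.94, SE 0.47) had adjusted p values of 0.981. Each of these differences moved with 1 animal left out: Itm2a stood at -0.25 and Pdgfrb at -0.53 without het786, and Cldn5 at -0.15 without wtBT13. Of the genes not tested, Flt1 had 0.643 ± 0.36 against 1.16 ± 0.38 CPM and Pecam1 0.939 ± 0.11 against 0.984 ± 0.60.

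**Figure D5:**
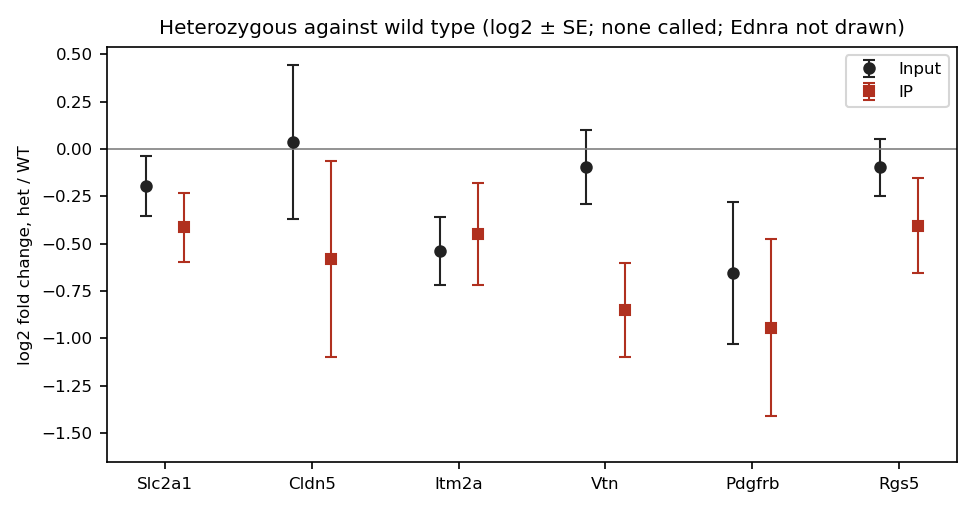
Log2 difference of heterozygous against wild type (± SE) in Input (circles) and IP (squares) for the 6 members tested in both fractions; Ednra, tested in IP alone, is not drawn. All 6 IP values are below 0, from -0.40 for Rgs5 to -0.94 for Pdgfrb, and no value passed the adjusted threshold. In Input Pdgfrb passed the filter through its wild-type libraries alone, which favoured a value below 0.

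In Input, 6 members were tested and 0 were called by edgeR (0% of 13870 genes, with 979, or 7.06%, at an unadjusted p below 0.05). DESeq2 and limma-voom called 0 genes, and edgeR without the filter called 28, none a member. Of the 6, 5 were negative, where 48.7% of all genes were. Pdgfrb is among these 5 and passed the filter in Input through its wild-type libraries alone, which favoured its direction. The count of negative members in Input is therefore not read as a result. Itm2a was the 1 member whose groups did not overlap, where 2.86% of all genes had every heterozygote below every wild type and 2.42% every one above. It had 14.1, 13 and 14.5 CPM in het729, het786 and hetBT13 against 19.9, 16.7, 22.7, 25.1 and 16.8 in wt734, wt736, wt785, wtBT13 and wtBT14. The 3 heterozygous values lay close together below the lowest wild type. The means were 13.8 ± 0.78 and 20.2 ± 3.66 CPM, a log2 difference of -0.54 (SE 0.18, unadjusted p = 0.00685, adjusted p = 0.642), and -0.56 without het729. The heterozygous mean was 69.1% of the wild-type one for BT names and 68.4% for the others.

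Another 4 heterozygous libraries labelled Input, whose titles end in IX or IXX, were not part of that comparison. In them Itm2a stood at 11 and 12.1 CPM for het730, below every wild type, and at 19.5 and 19.1 CPM for hetBT14, within the wild-type range. With their counts summed per animal and included, the difference was -0.45 (adjusted p = 0.686, range over alternatives 0.290 to 0.993). Slc2a1 in Input stood at 34.8 ± 5.75 against 39.9 ± 7.68 CPM (-0.20, SE 0.16; -0.06 without het729), Rgs5 at 27.8 ± 4.38 against 30.2 ± 3.70 (-0.10, SE 0.15) and Pdgfrb at 2.04 ± 0.96 against 3.23 ± 0.48 (-0.65, SE 0.37). For Pdgfrb the same addition gave -0.21. This gene had 9, 3 and 7 counts in the Input of het729, het786 and hetBT13, and none of these reached the level of the filter. It was tested through its wild-type libraries alone, so its difference of -0.65 was favoured by the filter. Flt1 stood at 1.11 ± 1.04 against 1.79 ± 0.46 CPM in Input and Pecam1 at 1.01 ± 0.42 against 1.25 ± 0.64, neither tested, and both overlapped. Cldn5 stood at 5.01 ± 2.32 against 4.6 ± 2.44 CPM, a difference of 0.04 (SE 0.41).

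The vascular lists were read beside the genotype values with the members taken out. Of 6 other endothelial identity genes tested in IP, 2 were negative and 4 positive (median 0.09), and their summed level was 115 to 127 CPM in heterozygous and 111 to 133 CPM in wild-type IP. In Input 4 of 5 were negative (median -0.24, 1 at an unadjusted p below 0.05), with sums of 104 to 127 against 120 to 140 CPM. Of 11 other barrier transporters 9 were negative in IP (median -0.33) and 8 of 10 in Input (median -0.16). Of 5 other pericyte genes 3 were negative in IP (median -0.45) and 3 in Input (median -0.16), with sums of 16.9 to 20.3 against 22.2 to 32.4 CPM in IP and 26.6 to 34.1 against 25.6 to 34.0 in Input. How often such sums of other genes do not overlap was not counted. The 4 other PDGF genes tested were all negative in both fractions (medians -0.45 and -0.25). In IP, 8 of 9 basement membrane genes (median -0.43) and 6 of 8 perivascular fibroblast genes (-0.56) were negative. So were 4 of 6 angiopoietin, Tie and TGF-beta genes (-0.34), 3 of 6 smooth muscle (-0.05) and 5 of 8 junction genes (-0.05). VEGF genes had 3 of 5 negative (-0.06), Norrin and Wnt genes 6 of 8 (-0.08) and endothelin and vasoactive genes 5 of 9 (-0.13). In Input the medians of these lists ran from -0.29 (fibroblast) to 0.15 (endothelin and vasoactive). None of these genes was called. Most markers of glia were negative too, and none was called. Of 14 astrocyte genes 12 were negative in IP and 13 in Input, with sums of 1137 to 1459 against 1328 to 1692 CPM in IP and 2222 to 2474 against 2449 to 3209 in Input. An unadjusted p below 0.05 (edgeR) was reached by 6 of these 14 in IP and 9 in Input, beside 4.09% and 7.06% of all genes. Of 13 microglial genes 13 were negative in IP and 12 in Input, with sums of 84.0 to 117 against 111 to 154 CPM in IP, and no marker of either list was at 0 in all wild-type Input libraries. Red cell genes were higher in both the IP and the Input of het729, as given above. The part of these cells in the results for Vtn, Ednra and Itm2a was not tested.

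Genes whose levels followed those of the members most closely were sought by the root mean square difference of centred log2 CPM over the 16 libraries, among 12142 genes with at least 5 CPM in Input. For the mean of the 3 endothelial members that passed the filter (Slc2a1, Cldn5, Itm2a), the nearest were Pik3ip1, Gsn, Pltp, Rcn1 and Lamp2, at 0.214 to 0.259 log2 units, where the median gene stood at 0.510. For the 3 mural ones (Vtn, Pdgfrb, Rgs5) they were Gfra1, Zbtb46, Rcn1, Cav2 and Tmem41b, at 0.161 to 0.242, with a median of 0.495. Rcn1 was in both sets, and Gfra1, the nearest in either, had a wild-type IP-to-Input difference of -0.23 (adjusted p = 0.230). All values share the same libraries and scaling. Among the members themselves Itm2a and Vtn were nearest to each other (0.311), an endothelial and a mural gene. Cldn5 lay farthest from its nearest neighbour (0.744), with the largest spread over libraries (SD 0.876). It had 6 to 29 counts per compared library, and the part of counting error in this spread was not tested.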

How the data were processed

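RNA was measured with Smart-seq2 in 20 libraries of 10 mice, 8 of which gave both IP and Input. The values deposited by the authors are unnormalized read counts for each Ensembl gene. HTSeq and the build mm10 are named in the submitters' processing notes, and the counter's version, the aligner, the annotation and the strand setting are not given in the sources used here. Names were matched for 24873 of 25317 identifiers, leaving 444. Smart-seq2 counts hold no molecular identifiers, so intervals cover counting error only.

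Groups come from the titles. The 4 libraries ending in IX or IXX, from 2 heterozygotes with no IP, were left out of the comparisons. Counts were tested in R 4.3.3 with edgeR 4.0.16: filterByExpr (count minimum 10), TMM, robust quasi-likelihood tests, Benjamini-Hochberg adjustment over all genes at 0.05. Genotype was tested within IP and within Input. IP against Input, and its difference between genotypes, came from 1 fit of 16 libraries with the animal as a block, because both fractions come from 1 lysate. After group means were removed, IP and Input of an animal correlated at r 0.0545 to 0.217 over 14797 genes, above the highest r with another animal in 7 of 8 animals (wtBT14: 0.0802 against 0.173). SE is the log2 difference divided by the square root of F. CPM were scaled by TMM over all 20 libraries. The script was tested on simulated counts. DESeq2 1.42.0, limma-voom (limma 3.58.1), other scalings and filters, the form of the animal name (BT or number) as a covariate, and leaving out each animal were the alternatives.

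Members below the filter are given by their counts or levels. From each of the 20 gene lists at most 3 other genes are named, those with the smallest p in wild-type IP against Input. Members and lists were chosen with earlier results of these data known.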

Additional observations from a re-analysis of the deposited data

Results flagged for a closer look

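In 1 of 18 sets of 5 wild-type libraries (9 genes, IP and Input), 1 library lay far from the other 4 by Dixon's criterion: Vtn had 17.8 CPM in the Input of wt734, against 11.4 to 12.9 CPM in the other 4. Chance gives about 1 in 20.

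Libraries labelled Input whose titles end in IX or IXX, which no comparison used, exceeded the highest wild-type Input library for 4 members. Slc2a1 had 50.8 CPM in hetBT14IX, where the highest wild type had 49.3. Flt1 had 2.53 CPM (6 counts) in het730IX and 3.64 CPM (13 counts) in hetBT14IXX, where the highest wild type had 2.42. Pdgfrb had 4.77 CPM in hetBT14IXX against 3.77, and Rgs5 had 37.5 CPM in het730IX against 35.1. The IX and IXX libraries of an animal also differed from each other: Flt1 had 2.53 and 0.592 CPM in the pair from het730, on 6 and 2 counts.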

How the results depend on the processing

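Of 456 recomputed member values, 434 kept their direction and their side of the threshold, 9 lost their call and 13 changed sign. All 13 that changed sign were values that had not been called. The number of members called in wild-type IP against Input fell from 2 to 1 with a minimum count of 30 (4 members tested) and with no replicate block, and ran from 1 to 2 with 1 animal left out. With no replicate block Cldn5 had a difference of -0.97 (adjusted p = 0.0513), and no other member's call changed. In heterozygotes the number ran from 1 to 3 with 1 animal left out.

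Signs changed with 1 animal left out for Cldn5 between genotypes in Input (-0.29 to 0.39), Vtn between genotypes in Input (-0.16 to 0.029), Vtn (-0.11 to 0.18) and Pdgfrb (-0.12 to 0.30) in wild-type IP against Input, Slc2a1 (-0.081 to 0.039) and Itm2a (-0.27 to 0.12) in heterozygous IP against Input, and Itm2a in the difference between genotypes (-0.15 to 0.24). Vtn was -0.051 in wild type under upper quartile scaling, and Slc2a1 was 0.0070 in heterozygotes without the filter. Without the filter the difference between genotypes was called for 11 genes and the genotype in Input for 28, against 0 and 0 with it, and none was a member. The cause of these changes was not tested.

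The genotype groups share 1 replicate number (BT13), so no paired genotype fit was made. Flt1, Pecam1 and Ednra had at most 17 counts in any library, which limits what their values can show.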
